A study of Mus musculus with 48 samples.

Results

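The solute carrier (Slc) genes are the families of membrane proteins that move amino acids, sugars, ions, metals, nucleosides and other small solutes across cell and organelle membranes. The members described here are the protein-coding genes whose symbol begins with Slc and a digit in the deposited comparisons of messenger RNA from mouse cerebellum, leaving out Slc17a7, Slc6a5, Slc32a1 and Slc4a4. There were 122 members among the 6094 genes listed in either comparison. The comparison of the Chd4 conditional knockout (cKO) with wild type (WT) listed 108 of them among 5508 genes, and the comparison of rotarod with rest listed 20 among 908 genes, with 6 members in both. Each of the 4 groups held 4 cerebella of postnatal days 27 to 28. The cKO mice carry a conditional deletion of Chd4, the ATPase of the NuRD nucleosome remodelling complex, and were set against WT mice. The rotarod mice, which ran on a rotating rod that tests balance and motor learning, and the rest mice, which stayed in their home cage, were all WT. The Cre line behind the conditional deletion, and so the cells that lose Chd4, is not given in the sources used here, nor is the length of the training.

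Solute carriers work as coupled transporters, which use the sodium, proton or potassium gradient to pull a solute uphill, as exchangers that swap a solute for another, or as facilitators that let it run down its own gradient. In the cerebellum, Bergmann glia and Purkinje cells use members of the Slc1 family to clear glutamate, granule neurons and Purkinje cells use sodium-calcium exchangers of the Slc8 and Slc24 families to lower calcium after firing, and endothelial cells supply glucose through Slc2a1. Several amino acid carriers of the Slc7 family are obligate partners of the heavy chain encoded by Slc3a2.

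Only genes past the authors' test, at an adjusted p under 0.05, are in the deposited tables, and other Slc genes have no value to read. The words rose and fell stand for a gene that passed that test. Levels are log2 CPM, reads normalised to the library total and not to gene length, with effective library sizes of 13.7 to 15.6 M reads for cKO and WT and 13.7 to 16.7 M for rotarod and rest. Differences are limma estimates in log2 CPM ± SE on the same libraries, adjusted over all features tested, so limma is a second fit and no independent test. The targeted gene, Chd4, read 7.90, 7.90, 8.06 and 7.90 log2 CPM in cKO, against 8.34, 8.45, 8.41 and 8.31 in WT, a difference of -0.44 ± 0.06 (limma adjusted p = 0.00199). In whole cerebellum, fewer cells of a type and less RNA per cell cannot be told apart. Markers of cerebellar cells were present in the cKO and WT libraries, with the 9 listed Purkinje cell genes, among them Pcp2 and Calb1, summing to between 8712 and 9208 CPM in cKO and between 10362 and 11002 CPM in WT.

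In the cKO cerebellum 59 members rose and 49 fell. Of all 27100 features tested, 20.3% were listed, 11% as higher and 9.29% as lower, and the members' split, with 54.6% higher, was close to the 54.3% of all listed genes. Of the 371 Slc genes in the RefSeq annotation, besides the 4 left out, 29.1% were listed, beside 22.9% of all 21900 protein-coding genes, a difference that was not tested. The limma fit called 44 members higher and 20 lower, where it called 13.2% of all features, 8.17% higher and 5.04% lower. Of these 64 calls, 39 held in each of the 8 fits that left out 1 library, 30 of them higher and 9 lower. Among the others, the call of Slc30a5 held in 0 of the 8 fits, those of Slc3a2, Slc7a8, Slc25a25, Slc22a8, Slc26a2 and Slc38a5 in 1, and those of Slc2a4, Slc27a3, Slc41a1 and Slc48a1 in 2. The calls of Slc6a8, Slc16a10, Slc18b1, Slc30a10, Slc37a3 and Slc39a13 held in 3 fits, those of Slc20a2, Slc27a5 and Slc35f3 in 4, those of Slc4a8 and Slc7a1 in 5, that of Slc50a1 in 6 and that of Slc9a5 in 7. The 4 cKO and 4 WT values did not overlap for 83 of the 108 members (76.9%), as for 78% of all listed genes. The median difference was 0.22 over the members and 0.21 over all listed genes. The large changes lay on one side: 20 members rose by at least 1 on the log2 scale in the authors' deposited table and 0 fell by as much, beside 868 and 170 among all listed genes. Centring each library on the median of its listed genes lowered every difference by 0.10 and turned no member's sign. It gave 33 calls higher and 41 lower in place of 44 and 20. That median is over called genes, more of them higher than lower, so centring can also take away part of the called change.

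**Figure D1:**
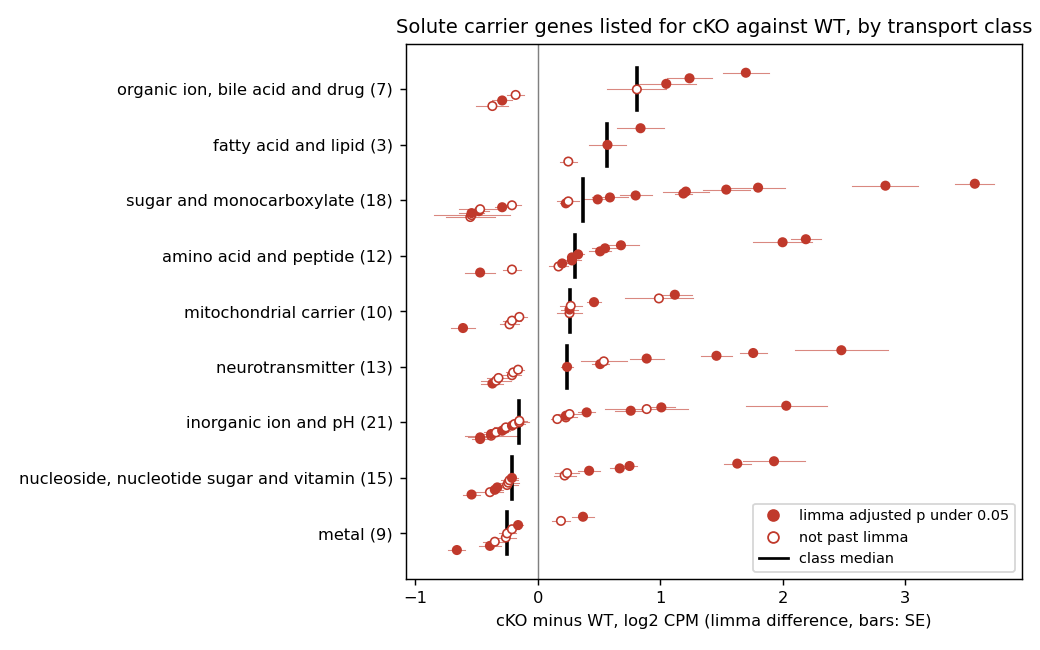
Difference in log2 CPM, cKO minus WT (limma estimate, bars are SE), for the 108 members grouped by transport class, with filled points past limma and a black line at each class median. Amino acid carriers and sugar and monocarboxylate carriers lie mostly to the right of 0, with class medians of 0.30 and 0.37, and metal carriers mostly to the left, with a median of -0.25.

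Most listed amino acid carriers rose. Of the 12 members in the amino acid and peptide class 10 rose and 2 fell, with 9 past limma higher and 1 lower, and a median difference of 0.30. All 6 listed members of the Slc7 family rose, and all 6 were past limma. Slc7a3, a carrier of the cationic amino acids arginine and lysine, read 1.74, 2.30, 2.94 and 2.54 log2 CPM in the cKO libraries, against 0.09, 0.52, 0.63 and 0.29 in the WT libraries. Every cKO library lay above every WT library, and the difference was 2.0 ± 0.24, or 3.99-fold (limma adjusted p = 0.00106). Slc7a1, the widely expressed carrier of the same amino acids, read 6.09, 6.0, 6.73 and 6.31 log2 CPM in the cKO libraries, against 5.53, 5.70, 5.55 and 5.63 in the WT libraries. The groups did not overlap and the difference was 0.68 ± 0.15 (limma adjusted p = 0.0191), though the limma adjusted p was up to 0.0531 when cKO library 4, WT library 1 or WT library 3 was left out. Slc7a5, the large neutral amino acid carrier that brings leucine and other essential amino acids into the brain, read 6.67, 6.70, 7.03 and 6.76 log2 CPM in the cKO libraries, against 6.29, 6.20, 6.38 and 6.24 in the WT libraries, a difference of 0.51 ± 0.09 (limma adjusted p = 0.00628). Its heavy chain partner Slc3a2 read 6.97, 6.96, 6.96 and 6.96 log2 CPM in the cKO libraries, against 6.87, 6.77, 6.71 and 6.71 in the WT libraries, a small step of 0.20 ± 0.05 without overlap. Slc7a8, another light chain of Slc3a2, rose by 0.28 ± 0.07 and Slc7a14, a family member found on lysosomes, by 0.33 ± 0.05. The limma calls of Slc3a2 and Slc7a8 held in 1 of the 8 fits that left out 1 library each. Slc7a15 had 59 reads over the 4 cKO libraries and 7 over the 4 WT libraries, a ratio of 8.61-fold (95% counting interval 3.93 to 22.4).

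The neutral amino acid carriers of the Slc1 family, Slc1a4 and Slc1a5, rose, while the 4 listed members of the Slc38 family split, 2 higher and 2 lower. Slc1a4, which exchanges alanine, serine and cysteine, read 5.54, 5.73, 6.23 and 5.80 log2 CPM in the cKO libraries, against 5.0, 4.84, 5.03 and 4.87 in the WT libraries. The lowest cKO value stood above the highest WT value, and the difference was 0.89 ± 0.14, or 1.85-fold (limma adjusted p = 0.0038). Slc1a5, the related glutamine carrier, averaged 1.83 ± 0.17 log2 CPM in cKO and 1.29 ± 0.40 in WT (SD, n = 4 each), and its groups overlapped. Slc38a6, of the sodium-coupled neutral amino acid family, read 4.40, 4.32, 4.50 and 4.62 log2 CPM in the cKO libraries, against 3.70, 3.79, 4.02 and 4.11 in the WT libraries, a difference of 0.55 ± 0.11 without overlap. The lysosomal peptide and histidine carrier Slc15a4 read 5.02, 5.04, 5.07 and 5.02 log2 CPM in the cKO libraries, against 4.77, 4.76, 4.75 and 4.73 in the WT libraries, and within each group its 4 values lay close together. It overlaps Glt1d1, which also rose, by 0.79 ± 0.08. The 2 members of the class that fell are carriers of glutamine, Slc38a3 with -0.21 ± 0.07 and Slc38a5 with -0.47 ± 0.12, and Slc38a3 did not pass limma (limma adjusted p = 0.11). Among Slc7a1, Slc7a3, Slc7a5 and Slc1a4, cKO library 3 was the highest of the 4 cKO libraries in each, and they were picked for that. Over the 12 members of the class, cKO library 3 was the highest in 4 and the lowest in 3. Without it their differences for the 4 picked genes were 0.53, 1.81, 0.43 and 0.75, and all 4 were still past limma.

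**Figure D2:**
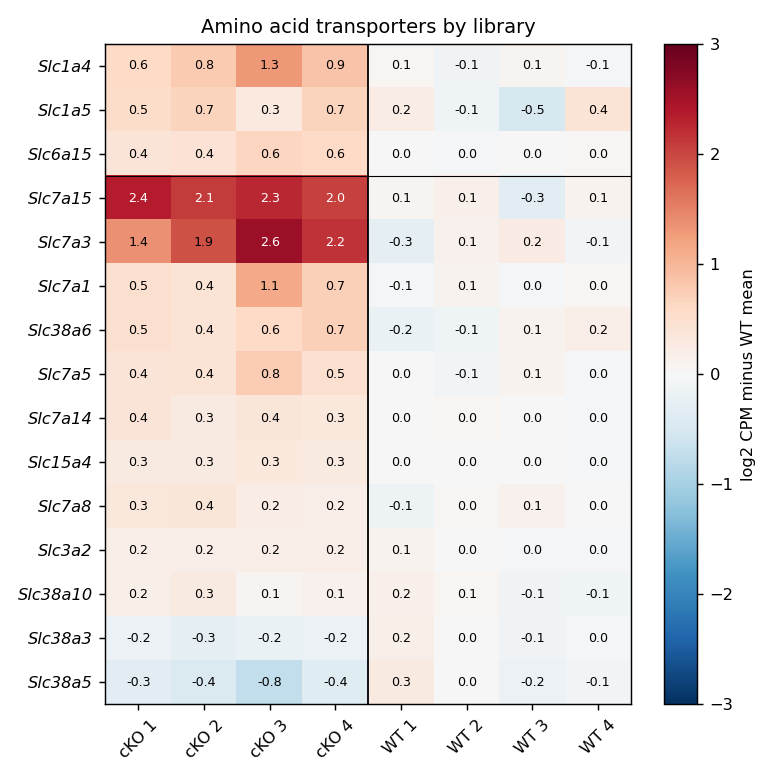
Each library's log2 CPM minus the WT mean for the 12 members of the amino acid and peptide class. Above the line are 3 amino acid carriers of the Slc1 and Slc6 families, Slc1a4, Slc1a5 and Slc6a15, chosen among those that rose. Slc6a7 and Slc6a19, which rose, and Slc6a17 and Slc6a20a, which fell, are not shown. Columns are the 4 cKO and the 4 WT libraries. The cKO columns are positive for all genes shown but Slc38a3 and Slc38a5, and Slc7a1, Slc7a3, Slc7a5 and Slc1a4 are highest in cKO library 3.

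Since most of these carriers rose, their promoters were searched for TGATGNAA and TGACGTCA on both strands. TGATGNAA is the core of the element bound by ATF4 with C/EBP factors in amino acid starvation, and TGACGTCA is the cAMP response element. The search ran from 250 bases before to 50 after the RefSeq start. A promoter was matched for 91 of the 122 members. TGATGNAA was in 4.51% of 27025 promoters, in 1 of the 40 matched members that rose in cKO, Slc1a4, and in 1 of the 39 that fell, Slc50a1. TGACGTCA was in 2.03% of all promoters and in 2 of the 40, Slc25a25 and Slc38a6, and in 0 of the 39. The promoters of the amino acid carriers with a match are shown from RefSeq on GRCm38.p6, Slc1a4 on the minus strand at chr11:20332664-20332963 and Slc38a6 on the plus strand at chr12:73286598-73286897, each 5′ to 3′ on the gene's strand, with the match in capitals (for Slc1a4 on the opposite strand).
Slc1a4: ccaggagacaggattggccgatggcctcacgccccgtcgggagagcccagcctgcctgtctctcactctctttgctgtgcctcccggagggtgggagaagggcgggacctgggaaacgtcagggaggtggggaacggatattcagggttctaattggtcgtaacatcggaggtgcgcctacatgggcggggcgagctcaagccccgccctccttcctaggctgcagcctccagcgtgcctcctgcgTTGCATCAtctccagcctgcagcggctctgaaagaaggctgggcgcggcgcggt
Slc38a6: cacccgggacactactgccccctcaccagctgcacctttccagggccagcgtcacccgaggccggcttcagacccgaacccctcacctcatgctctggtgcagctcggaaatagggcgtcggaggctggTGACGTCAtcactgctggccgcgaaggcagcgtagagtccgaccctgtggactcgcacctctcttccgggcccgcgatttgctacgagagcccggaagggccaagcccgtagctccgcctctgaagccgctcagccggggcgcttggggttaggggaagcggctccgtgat

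Genes of the amino acid stress response, a list of transcripts that rise when amino acids run short, were read beside these carriers. Of the 9 genes 7 were listed, all 7 rose, and 6 were past limma, with a median of 0.93. They included Chac1, an enzyme that degrades glutathione, at 1.56 ± 0.14, the kinase-like regulator Trib3 at 1.40 ± 0.20, the leucine sensor Sesn2 at 0.93 ± 0.12 and the asparagine synthetase Asns at 0.64 ± 0.13. Ddit3 did not pass limma, at 0.32 ± 0.15 (limma adjusted p = 0.333). Their summed level was 185.8, 192.6, 262.2 and 228.4 CPM in the cKO libraries, against 134.5, 125.7, 125.4 and 127.1 CPM in the WT libraries. The highest sum was in cKO library 3. The list was chosen with earlier results of these data known, and its link to the rise of the carriers was not tested. After rotarod 1 of the 9 genes was listed, Ddit4, at 0.92 ± 0.13 (limma adjusted p = 0.0258).

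The Slc1 and Slc6 families also hold the transporters of neurotransmitters. Of 13 members in that class 7 rose and 6 fell (limma 6 and 1), with a median of 0.24, which was also 0.24 with Slc1a7 set to the ratio given below. Those that rose carry amino acids or creatine rather than a fast transmitter, apart from Slc1a7. Slc6a7, the brain carrier of proline, read 5.57, 5.59, 5.38 and 5.60 log2 CPM in the cKO libraries, against 4.01, 3.89, 3.50 and 3.70 in the WT libraries. All cKO libraries lay above all WT libraries, and the difference of 1.76 ± 0.11 was 3.38-fold (limma adjusted p = 3.77e-05). Slc6a15, a neuronal carrier of branched-chain amino acids and proline, read 6.33, 6.38, 6.60 and 6.55 log2 CPM in the cKO libraries, against 5.95, 5.92, 5.95 and 5.99 in the WT libraries, a difference of 0.51 ± 0.07 (limma adjusted p = 0.00198). Slc6a19, known as the neutral amino acid carrier of gut and kidney, had 88 reads over the 4 cKO libraries and 11 over the 4 WT libraries, a ratio of 8.18-fold (95% counting interval 4.35 to 17). The creatine transporter Slc6a8 rose by 0.24 ± 0.05. Slc1a7, the glutamate transporter best known from retina, had 14 reads over the 4 cKO libraries and 0 over the 4 WT libraries. With WT set to 3 reads over the group the ratio was 4.77-fold, which leaves out the counting error of the 14 reads.

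The glutamate transporters of glia and Purkinje cells and a GABA transporter fell by small steps. Slc1a3, the glutamate transporter of Bergmann glia, read 10.19, 10.28, 10.29 and 10.32 log2 CPM in the cKO libraries, against 10.42, 10.49, 10.41 and 10.41 in the WT libraries. The groups did not overlap, yet the difference of -0.16 ± 0.05 did not pass limma (limma adjusted p = 0.0674). Slc1a6, the glutamate transporter of Purkinje cells, read 7.22, 7.39, 7.24 and 7.45 log2 CPM in the cKO libraries, against 7.63, 7.53, 7.54 and 7.46 in the WT libraries, a difference of -0.21 ± 0.07 that limma did not call either (limma adjusted p = 0.0933). The vesicular neutral amino acid transporter Slc6a17 moved by -0.20 ± 0.06, and Slc6a13, a GABA and taurine carrier of the meninges, by -0.34 ± 0.12 with overlapping groups. Of this group only Slc18b1, a vesicular polyamine transporter, passed limma, at -0.37 ± 0.09, and that call was lost without cKO libraries 1, 2 or 4 or WT libraries 3 or 4 (limma adjusted p up to 0.0784). Beside these values, all 9 listed of 10 Purkinje markers and all 3 listed of 10 astrocyte and Bergmann glia markers were lower in cKO, with medians of -0.25 and -0.24. The summed level of the glial markers was between 1888 and 2083 CPM in cKO and between 2238 and 2382 CPM in WT. Their part in the fall of the transporters was not tested.

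Of the 18 members in the sugar and monocarboxylate class 11 rose and 7 fell (limma 10 and 3), with a median of 0.37. The largest limma difference of any member was in Slc5a5, which belongs by name to the sodium-glucose family but carries iodide into the thyroid. It read 5.41, 5.37, 5.25 and 5.80 log2 CPM in the cKO libraries, against 2.13, 1.66, 1.66 and 2.10 in the WT libraries, so that the groups were separated by more than 3 log2 units. The difference was 3.57 ± 0.16, or 11.9-fold (limma adjusted p = 6.49e-06), from 2579 reads over the 4 cKO libraries and 214 over the 4 WT libraries. In the authors' deposited table its log2 fold change of 3.60 was below the 4.89 of Slc1a7, which had 0 reads in WT, so that the order of these 2 members is not fixed. Slc16a5, a family member of the monocarboxylate transporters, read 3.81, 3.74, 3.88 and 3.79 log2 CPM in the cKO libraries, against 1.58, 0.10, 1.0 and 1.16 in the WT libraries. The difference was 2.84 ± 0.27, or 7.17-fold (limma adjusted p = 0.000306), and the overlapping gene Gm11695 also rose, by 2.64 ± 0.32. Counting strand is not stated, so reads of the pair cannot be told apart.

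Slc16a6, another member of that family, read 5.81, 5.74, 5.86 and 5.75 log2 CPM in the cKO libraries, against 4.54, 4.52, 4.77 and 4.58 in the WT libraries. It was 2.28-fold higher, with a difference of 1.19 ± 0.07 (limma adjusted p = 2.18e-05) and no overlap. Slc2a9, the urate transporter, read 2.50, 2.36, 2.57 and 2.79 log2 CPM in the cKO libraries, against 0.90, 1.25, 0.51 and 1.40 in the WT libraries, a difference of 1.54 ± 0.19 (limma adjusted p = 0.00119). The fructose transporter Slc2a5 had 104 reads over the 4 cKO libraries and 26 over the 4 WT libraries, a ratio of 4.09-fold (95% counting interval 2.64 to 6.55). Slc16a3, which exports lactate from glycolytic cells, rose by 0.80 ± 0.13. The insulin-responsive glucose transporter Slc2a4 rose by 0.59 ± 0.15, with overlapping groups. Slc5a2, the glucose carrier of the kidney tubule, had 49 reads over the 4 cKO libraries and 16 over the 4 WT libraries, a ratio of 3.13-fold (95% counting interval 1.75 to 5.9).

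Among the members of these families that fell, Slc16a11 read 6.11, 5.98, 5.89 and 6.06 log2 CPM in the cKO libraries, against 6.39, 6.37, 6.59 and 6.61 in the WT libraries, a difference of -0.48 ± 0.08 (limma adjusted p = 0.00501). Slc5a6, which takes up the vitamins biotin and pantothenate, read 3.79, 3.63, 3.63 and 3.59 log2 CPM in the cKO libraries, against 4.40, 3.97, 4.16 and 4.24 in the WT libraries, a difference of -0.54 ± 0.10 (limma adjusted p = 0.00744). Both pairs of groups were apart, and both limma calls held in all 8 fits that left out 1 library. The neuronal glucose transporter Slc2a3 averaged 7.05 ± 0.10 log2 CPM in cKO and 7.26 ± 0.08 in WT (SD, n = 4 each), and its -0.21 ± 0.07 did not pass limma (limma adjusted p = 0.094). Slc2a12 and Slc16a14 were also listed as lower, at -0.54 ± 0.31 and -0.55 ± 0.20, with overlapping groups and limma adjusted p of 0.624 and 0.139.

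**Figure D3:**
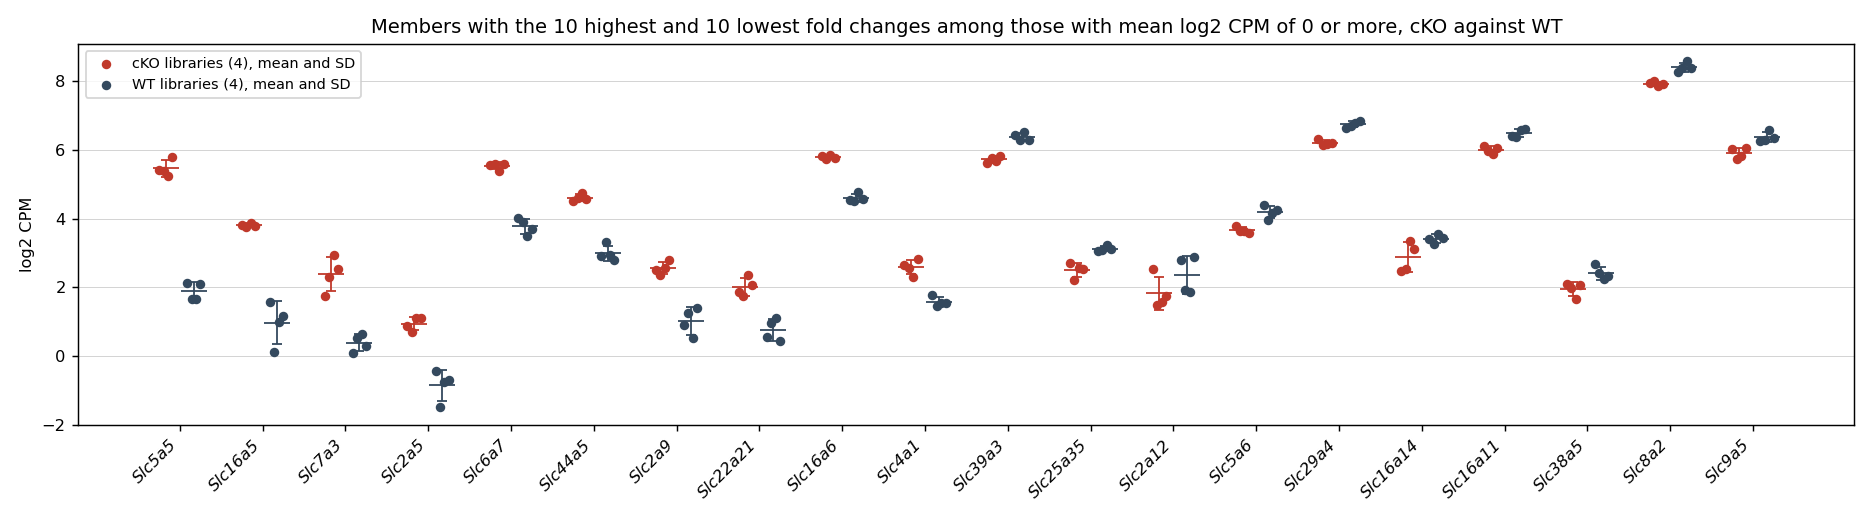
Log2 CPM of the members with the 10 highest and 10 lowest log2 fold changes among those with a mean of 0 log2 CPM or more; points are the 4 cKO libraries (left of each gene) and the 4 WT libraries (right), with mean and SD. The 10 genes on the left, from Slc5a5 to Slc4a1, have all cKO points above all WT points, and of the 10 on the right Slc2a12 and Slc16a14 overlap.

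Ion carriers went in both directions. The class of inorganic ions and pH had 21 members, 9 higher and 12 lower (limma 5 and 6), with a median of -0.15. The 3 sodium-calcium exchangers of the Slc8 family went in different directions. Slc8a2 read 7.94, 8.0, 7.86 and 7.91 log2 CPM in the cKO libraries, against 8.26, 8.37, 8.58 and 8.39 in the WT libraries, a difference of -0.47 ± 0.07 (limma adjusted p = 0.00416). Slc8a3 read 6.57, 6.56, 6.81 and 6.74 log2 CPM in the cKO libraries, against 6.25, 6.28, 6.35 and 6.21 in the WT libraries, a difference of 0.40 ± 0.07 (limma adjusted p = 0.00832). Neither gene had overlapping groups, and Slc8a3 lies over Gm3693, which also rose (0.64 ± 0.20). Slc8a1 rose by 0.26 ± 0.09 without passing limma (limma adjusted p = 0.138).

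The potassium-dependent exchanger Slc24a2, a neuronal calcium extruder, read 8.72, 8.81, 8.71 and 8.76 log2 CPM in the cKO libraries, against 9.14, 9.07, 8.95 and 9.01 in the WT libraries. All cKO libraries were below all WT libraries, with a difference of -0.29 ± 0.06 (limma adjusted p = 0.0116), while its relative Slc24a3 overlapped at -0.15 ± 0.08 (limma adjusted p = 0.565). Calcium pumps, which also lower calcium in the cytosol, were listed for 4 of 7 genes, all lower, with 3 past limma. Of the plasma membrane pumps, Atp2b4 moved by -0.71 ± 0.09, Atp2b3 by -0.33 ± 0.06 and Atp2b2, the pump of Purkinje and granule cells, by -0.23 ± 0.06. The other listed pump, Atp2a3, which sits on the endoplasmic reticulum, moved by -0.20 ± 0.07 and did not pass limma (limma adjusted p = 0.15). The 4 listed pumps summed to between 1894 and 2115 CPM in cKO and between 2301 and 2471 CPM in WT. Of the 11 sodium-potassium ATPase genes, which build the gradient the carriers use, 6 were listed, with 2 higher and 4 lower. The regulator Fxyd6 rose by 1.07 ± 0.09.

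Carriers of bicarbonate and protons also went in both directions. Slc4a1, the anion exchanger of red blood cells, read 2.65, 2.56, 2.31 and 2.82 log2 CPM in the cKO libraries, against 1.76, 1.45, 1.54 and 1.55 in the WT libraries, a difference of 1.01 ± 0.11 (limma adjusted p = 0.000779) without overlap. Of 8 red blood cell markers 1 was listed, Hba-a1, and it was lower, at 27.8, 43.6, 17.9 and 21.1 CPM in cKO, against 57.9, 29.8, 34.3 and 27.2 CPM in WT. The neuronal bicarbonate carriers Slc4a8 and Slc4a3 rose by 0.23 ± 0.05 and 0.16 ± 0.05, and Slc4a10 fell, at -0.15 ± 0.06. The proton exchanger Slc9a5 read 6.03, 5.74, 5.83 and 6.04 log2 CPM in the cKO libraries, against 6.26, 6.30, 6.59 and 6.36 in the WT libraries, a difference of -0.47 ± 0.10 that did not pass limma without cKO library 3 (limma adjusted p = 0.0513), and its overlapping neighbour Plekhg4 fell too, at -0.55 ± 0.11. Of the 18 subunit genes of the vacuolar proton ATPase, which acidifies vesicles and lysosomes, 10 were listed, 9 higher and 1 lower, and 7 were past limma higher. Their differences ran between -0.16 and 0.44.

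Sulfate, phosphate and magnesium carriers gave both directions as well. The sulfate carrier Slc13a1 read 2.82, 2.70, 2.97 and 2.76 log2 CPM in the cKO libraries, against 1.68, 2.16, 2.31 and 2.07 in the WT libraries, a difference of 0.76 ± 0.13 (limma adjusted p = 0.00677). Slc26a2, a sulfate carrier needed in cartilage, fell, at -0.38 ± 0.10, and so did the phosphate carrier Slc20a2, at -0.27 ± 0.06, and the magnesium carrier Slc41a1, at -0.21 ± 0.05. Slc34a3, the phosphate carrier of the kidney, had 61 reads over the 4 cKO libraries and 9 over the 4 WT libraries, a ratio of 6.93-fold (95% counting interval 3.42 to 15.9). Slc12a4 was the one cation-chloride cotransporter listed, at -0.26 ± 0.10, and of the 8 genes of the WNK kinase pathway that controls those cotransporters 1 rose and 3 fell. Klhl3, which targets WNK kinases for degradation, was among the lower ones at -0.47 ± 0.09, and Wnk3 rose by 0.34 ± 0.06.

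Metal carriers were mostly lower, with 7 of 9 members falling and a median of -0.25, though limma called only 1 higher, Slc30a10, and 3 lower, Slc39a3, Slc39a13 and Slc30a5. Of these calls that of Slc39a3 held in all 8 fits that left out 1 library, those of Slc39a13 and Slc30a10 in 3 each and that of Slc30a5 in 0. Slc39a3, a zinc importer, read 5.61, 5.77, 5.68 and 5.82 log2 CPM in the cKO libraries, against 6.43, 6.29, 6.52 and 6.30 in the WT libraries. The groups did not overlap and the difference was -0.66 ± 0.07, or 1.58-fold lower (limma adjusted p = 0.000664). A second importer of that family, Slc39a13, read 5.39, 5.25, 5.02 and 5.12 log2 CPM in the cKO libraries, against 5.44, 5.63, 5.62 and 5.66 in the WT libraries, a difference of -0.39 ± 0.09. The zinc exporters Slc30a1, Slc30a5 and Slc30a6 fell, at -0.26 ± 0.08, -0.16 ± 0.04 and -0.35 ± 0.10. Slc30a10, which exports manganese, was the larger of the 2 that rose, at 0.37 ± 0.09. The metallothioneins Mt1 and Mt2, which bind zinc in the cell, and the zinc-sensing factor Mtf1 were lower, at -0.25 ± 0.09, -0.21 ± 0.10 and -0.24 ± 0.05, and of these Mtf1 passed limma.

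Mitochondrial carriers of the Slc25 family had 6 members higher and 4 lower, with a median of 0.26 and limma calls of 3 and 1. Slc25a44, which brings branched-chain amino acids into mitochondria, read 7.01, 7.0, 6.97 and 6.92 log2 CPM in the cKO libraries, against 6.51, 6.62, 6.52 and 6.41 in the WT libraries, a difference of 0.46 ± 0.06 (limma adjusted p = 0.00113) without overlap. Slc25a35 read 2.71, 2.22, 2.57 and 2.52 log2 CPM in the cKO libraries, against 3.06, 3.08, 3.24 and 3.12 in the WT libraries, a difference of -0.61 ± 0.10 (limma adjusted p = 0.00572), also without overlap. Slc25a25, a calcium-regulated carrier of ATP-magnesium and phosphate, rose by 0.26 ± 0.07, and its overlapping neighbour Naif1 fell, at -0.53 ± 0.09. The glutathione carrier Slc25a39 fell, at -0.15 ± 0.06, with overlapping groups.

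Nucleoside, nucleotide sugar and vitamin carriers numbered 15, with 7 higher and 8 lower and a median of -0.21. Slc44a5, a choline transporter-like protein, read 4.52, 4.60, 4.74 and 4.58 log2 CPM in the cKO libraries, against 2.90, 3.31, 2.94 and 2.78 in the WT libraries, a difference of 1.63 ± 0.11, or 3.09-fold (limma adjusted p = 6.16e-05). The equilibrative nucleoside transporter Slc29a1, which clears adenosine, read 5.55, 5.64, 5.39 and 5.54 log2 CPM in the cKO libraries, against 4.74, 4.81, 4.80 and 4.75 in the WT libraries. It was 1.69-fold higher, at 0.75 ± 0.06 (limma adjusted p = 0.000146). Its relatives went the other way: Slc29a4, a carrier of monoamines, read 6.33, 6.13, 6.17 and 6.19 log2 CPM in the cKO libraries, against 6.65, 6.70, 6.78 and 6.85 in the WT libraries, a difference of -0.54 ± 0.07 (limma adjusted p = 0.00107), and the lysosomal Slc29a3 fell, at -0.33 ± 0.06. None of these 4 genes had overlapping groups. Slc35g2 and Slc35f3 rose by 0.67 ± 0.08 and 0.42 ± 0.09, and the riboflavin transporter Slc52a2 fell, at -0.35 ± 0.07.

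Carriers of organic ions and of fatty acids had 7 and 3 members. Slc22a21, a mouse carnitine transporter, read 1.86, 1.73, 2.35 and 2.07 log2 CPM in the cKO libraries, against 0.55, 0.96, 1.09 and 0.44 in the WT libraries, a difference of 1.24 ± 0.18 (limma adjusted p = 0.00278) without overlap. Lower were Slc22a8, an organic anion carrier of the blood-brain barrier, at -0.29 ± 0.08 and the drug exporter Slc47a1 at -0.37 ± 0.13. All 3 fatty acid transporters rose, Slc27a1 by 0.25 ± 0.07, Slc27a3 by 0.57 ± 0.15 and Slc27a5 by 0.84 ± 0.19. Slc27a1 did not pass limma (limma adjusted p = 0.052). Slc27a3 had overlapping groups, and its limma call held in 2 of the 8 fits that left out 1 library. Slc27a5 had 65 reads over the 4 cKO libraries and 34 over the 4 WT libraries, and its call held in 4 of the 8 fits. Of 15 organic anion transporters of the Slco group, which lie outside the rule, 4 were listed, 3 higher and 1 lower, with 2 past limma. Slco2a1, the prostaglandin carrier, rose by 0.63 ± 0.05.

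The other members with 1 log2 CPM or more on average differed by small steps. Among those that rose were Slc16a10, which carries aromatic amino acids, at 0.49 ± 0.12, Slc37a3 at 0.23 ± 0.05, the bicarbonate carrier Slc4a7 at 0.23 ± 0.09 and the zinc importer Slc39a6 at 0.19 ± 0.07. Slc38a10 rose by 0.17 ± 0.08, the mitochondrial carriers of basic amino acids, Slc25a29, and of coenzyme A, Slc25a42, by 0.27 ± 0.09 and 0.26 ± 0.10, and Slc35e4 by 0.24 ± 0.10. Lower were the sugar carriers Slc50a1 at -0.29 ± 0.06 and Slc2a10 at -0.47 ± 0.17, the proline carrier Slc6a20a at -0.32 ± 0.09, the proton exchanger Slc9a3 at -0.34 ± 0.10 and the dicarboxylate carrier Slc13a3 at -0.19 ± 0.09. The zinc importer Slc39a10 and the copper carrier Slc31a2 fell, at -0.21 ± 0.06 and -0.25 ± 0.07, the mitochondrial Slc25a27 at -0.21 ± 0.07, and Slc22a23 at -0.18 ± 0.07. The heme carrier Slc48a1 and the choline carrier Slc44a1 fell, at -0.21 ± 0.05 and -0.23 ± 0.07, and Slc35f1, Slc35b1 and the lysosomal Slc46a3 at -0.24 ± 0.09, -0.25 ± 0.09 and -0.39 ± 0.11. Of these 22 members limma called Slc16a10, Slc37a3, Slc50a1 and Slc48a1, calls that held in 3, 3, 6 and 2 of the 8 fits that left out 1 library.

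The listed members with few reads were all higher in cKO. All 14 members with a mean under 1 log2 CPM in the authors' deposited table rose, beside 597 of the 767 listed genes at that level (77.8%). At 1 log2 CPM or more, 45 members rose and 49 fell. The 14 include carriers known from liver, kidney or gut, such as the organic anion carrier Slc22a7 with 71 reads over the 4 cKO libraries and 17 over the 4 WT libraries, a ratio of 4.27-fold (95% counting interval 2.49 to 7.73). The bile acid carrier Slc10a1 had 60 reads over the 4 cKO libraries and 32 over the 4 WT libraries, a ratio of 1.92-fold (95% counting interval 1.23 to 3.04), and its groups overlapped. Slc46a2 had 59 reads over the 4 cKO libraries and 10 over the 4 WT libraries, a ratio of 6.03-fold (95% counting interval 3.06 to 13.2), and the ornithine carrier Slc25a2 had 59 reads over the 4 cKO libraries and 27 over the 4 WT libraries, a ratio of 2.23-fold (95% counting interval 1.39 to 3.66). Slc25a48 had 20 reads over the 4 cKO libraries and 5 over the 4 WT libraries, a ratio of 4.09-fold (95% counting interval 1.49 to 13.9), and Slc24a1, the exchanger of rod photoreceptors, had 69 reads over the 4 cKO libraries and 37 over the 4 WT libraries, a ratio of 1.91-fold (95% counting interval 1.26 to 2.92) with overlapping groups. The counting intervals leave out the spread between libraries.

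Of 100 cell type marker genes 52 were listed, 5 higher and 47 lower, with limma calls of 4 and 22. The granule neuron markers went both ways, with 3 of the 7 listed higher and 4 lower (limma 3 and 3). Pax6, Reln and Gabra6 differed by 0.45 ± 0.05, 0.37 ± 0.06 and 0.20 ± 0.05, and Cbln3, Zic2 and Neurod1 by -0.58 ± 0.05, -0.50 ± 0.06 and -0.32 ± 0.07. All 7 listed endothelial and mural markers were lower, summing to between 122.7 and 141.9 CPM in cKO and between 160.4 and 187.6 CPM in WT. All 8 listed meningeal markers were lower too, between 840.3 and 912.7 CPM in cKO and between 928.0 and 1184 CPM in WT, although none passed limma. The 3 listed of 10 choroid plexus markers, Folr1, Calml4 and Otx2, were lower with a median of -1.01, none of them past limma. They summed to 21.9, 15.2, 15.9 and 14 CPM in the cKO libraries, against 36.3, 17.9, 18.2 and 31.8 CPM in the WT libraries. Slc13a4 read 4.20, 3.74, 3.84 and 3.88 log2 CPM in the cKO libraries, against 4.73, 3.96, 3.86 and 4.63 in the WT libraries, a difference of -0.38 ± 0.21 with overlapping groups, and Slc2a12 read 2.52, 1.47, 1.56 and 1.75 log2 CPM in the cKO libraries, against 2.78, 1.93, 1.85 and 2.89 in the WT libraries. Both genes and the choroid plexus sum were highest in WT libraries 1 and 4 and, among the cKO libraries, in cKO library 1. The part of all these markers in the lower values of Slc2a12, Slc6a13, Slc13a4, Slc22a8 and Slc47a1 was not tested.

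Of the 108 members 45 overlap another RefSeq gene, and for 8 of them that gene was listed, in 6 cases in the same direction. The pairs not given above are Slc20a2 with Smim19, at -0.37 ± 0.13, Slc30a10 with Gm2061, at 0.66 ± 0.14, and Slc48a1 with Hdac7, at 0.27 ± 0.08.

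Rotarod training gave fewer listed members, most of them lower. Of the 20 members 6 rose and 14 fell after rotarod, where 3.38% of 26900 features were listed, 2.06% as higher and 1.31% as lower. Among all listed genes 61.1% were higher, and the median difference was -0.30 over the members and 0.30 over all listed genes. The limma fit called 1 member higher and 1 lower, 10% of the 20, beside 18.4% of all listed genes. Its calls over all listed genes made up 0.621% of features tested, 0.42% higher and 0.201% lower. Centring the libraries on the median of their listed genes lowered the differences by 0.09 and gave 1 higher and 6 lower, with no sign turned. The groups did not overlap for 16 of the 20 members (80%), as for 84.9% of listed genes.

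Sugar carriers were among the few that rose. Slc2a1, the glucose transporter of brain capillaries and astrocytes, read 6.89, 6.87, 6.62 and 6.82 log2 CPM in the rotarod libraries, against 6.07, 6.03, 6.13 and 6.12 in the rest libraries. Every rotarod library was above every rest library, by 0.71 ± 0.08, or 1.64-fold (limma adjusted p = 0.00893), and the call held in all 8 fits that left out 1 library. Slc5a3, the carrier of the osmolyte myo-inositol, read 5.48, 5.84, 5.72 and 5.42 log2 CPM in the rotarod libraries, against 5.14, 4.98, 4.62 and 4.90 in the rest libraries, a difference of 0.71 ± 0.14 without overlap that did not pass limma (limma adjusted p = 0.0747). Slc2a6, a glucose transporter relative on lysosomes, fell, at -0.31 ± 0.08. Of the 10 endothelial and mural markers 1 was listed, Flt1, at 0.38, with 53.1 to 67.7 CPM in rotarod and 37.3 to 57.5 CPM in rest, and its part in the rise of Slc2a1 was not tested.

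The promoters of Slc2a1 and Slc5a3 hold a GC box, searched as the 10 letters shown in capitals on either strand, a sequence that Sp factors bind in many housekeeping promoters. It was in 7.97% of all 27025 promoters, in 2 of the 5 matched members that rose with rotarod, Slc2a1 and Slc5a3, and in 2 of the 12 that fell. Among members matched in the cKO comparison it was in 5 of 40 that rose and 6 of 39 that fell. The 2 RefSeq promoters lie on the plus strand of GRCm38.p6, Slc2a1 at chr4:119108495-119108794 and Slc5a3 at chr16:92058072-92058371, with the match in capitals (for Slc2a1 on the opposite strand).
Slc2a1: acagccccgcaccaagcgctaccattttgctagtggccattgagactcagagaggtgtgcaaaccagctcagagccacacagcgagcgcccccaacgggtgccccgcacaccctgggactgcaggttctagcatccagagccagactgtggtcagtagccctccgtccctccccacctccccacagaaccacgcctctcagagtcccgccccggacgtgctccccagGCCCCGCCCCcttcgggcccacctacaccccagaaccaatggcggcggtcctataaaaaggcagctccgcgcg
Slc5a3: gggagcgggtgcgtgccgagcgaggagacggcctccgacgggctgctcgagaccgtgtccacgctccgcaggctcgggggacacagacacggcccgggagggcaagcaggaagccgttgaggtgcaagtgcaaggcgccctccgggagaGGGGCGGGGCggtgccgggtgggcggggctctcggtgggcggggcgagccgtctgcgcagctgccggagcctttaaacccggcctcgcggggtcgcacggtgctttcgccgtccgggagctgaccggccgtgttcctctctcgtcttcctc

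Peptide and zinc carriers made up the other large rises. The peptide carrier Slc15a2 read 6.65, 5.11, 5.11 and 5.26 log2 CPM in the rotarod libraries, against 2.69, 5.09, 4.04 and 4.38 in the rest libraries. The groups did not overlap, but rotarod library 3 stood high and rest library 1 low, and limma did not call the 1.48 ± 0.53 (limma adjusted p = 0.705). Slc15a4, the lysosomal relative, read 4.72, 4.73, 4.63 and 4.70 log2 CPM in the rotarod libraries, against 4.44, 4.31, 4.37 and 4.11 in the rest libraries, a difference of 0.38 ± 0.08 (limma adjusted p = 0.106). The zinc importer Slc39a2 rose by 0.52 ± 0.14, and Slc35e2 by 0.24 ± 0.07 together with its overlapping gene Gm16023 (0.55 ± 0.13).

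Among the 14 that fell, Slc24a5, a potassium-dependent sodium-calcium exchanger known from pigment cells, was the one past limma. It read 2.31, 2.31, 2.46 and 2.44 log2 CPM in the rotarod libraries, against 2.81, 2.94, 3.10 and 3.02 in the rest libraries, a difference of -0.59 ± 0.08, or 1.5-fold lower (limma adjusted p = 0.0237). Without any of rotarod libraries 3, 4, 7 or 8 or rest libraries 2, 5 or 6 that call was lost, with a limma adjusted p of up to 0.0904, while the difference stayed between -0.64 and -0.55. The proton exchanger Slc9a8 read 6.01, 6.0, 6.20 and 6.02 log2 CPM in the rotarod libraries, against 6.41, 6.47, 6.32 and 6.31 in the rest libraries, a difference of -0.32 ± 0.07 without overlap (limma adjusted p = 0.129). The mitochondrial carriers Slc25a11, which exchanges malate for oxoglutarate, and Slc25a53 fell, at -0.24 ± 0.06 and -0.34 ± 0.08, and the nucleotide sugar family members Slc35f6 and Slc35b2 at -0.28 ± 0.07 and -0.29 ± 0.07.

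Slc6a13, Slc13a4 and Slc22a6, picked as carriers known from the meninges or the brain's barriers, were listed as lower after rotarod, and none of the 3 passed limma. They were picked among the members that fell, so they do not show a shared fall of such carriers. The capillary glucose transporter Slc2a1 and the peptide carrier Slc15a2 went the other way, as given above. Slc6a13 read 3.56, 3.22, 3.21 and 3.38 log2 CPM in the rotarod libraries, against 3.76, 4.07, 3.86 and 4.27 in the rest libraries, a difference of -0.65 ± 0.13 without overlap (limma adjusted p = 0.0872). The sulfate carrier Slc13a4 read 4.21, 4.56, 4.18 and 3.91 log2 CPM in the rotarod libraries, against 4.41, 4.87, 4.60 and 5.19 in the rest libraries, and the organic anion carrier Slc22a6 read 3.40, 2.90, 3.07 and 2.60 log2 CPM in the rotarod libraries, against 3.38, 3.75, 3.26 and 3.67 in the rest libraries. Both overlapped between the groups, with -0.55 ± 0.19 and -0.52 ± 0.18, and neither passed limma (limma adjusted p of 0.601 and 0.588). Of 10 meningeal markers 3 were listed, Col1a1, Fmod and Aebp1, and all were lower, summing to 110.7, 105.7, 81.1 and 90.6 CPM in the rotarod libraries, against 128.6, 140.2, 122.5 and 153.9 CPM in the rest libraries. Their part in the lower carriers was not tested.

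**Figure D4:**
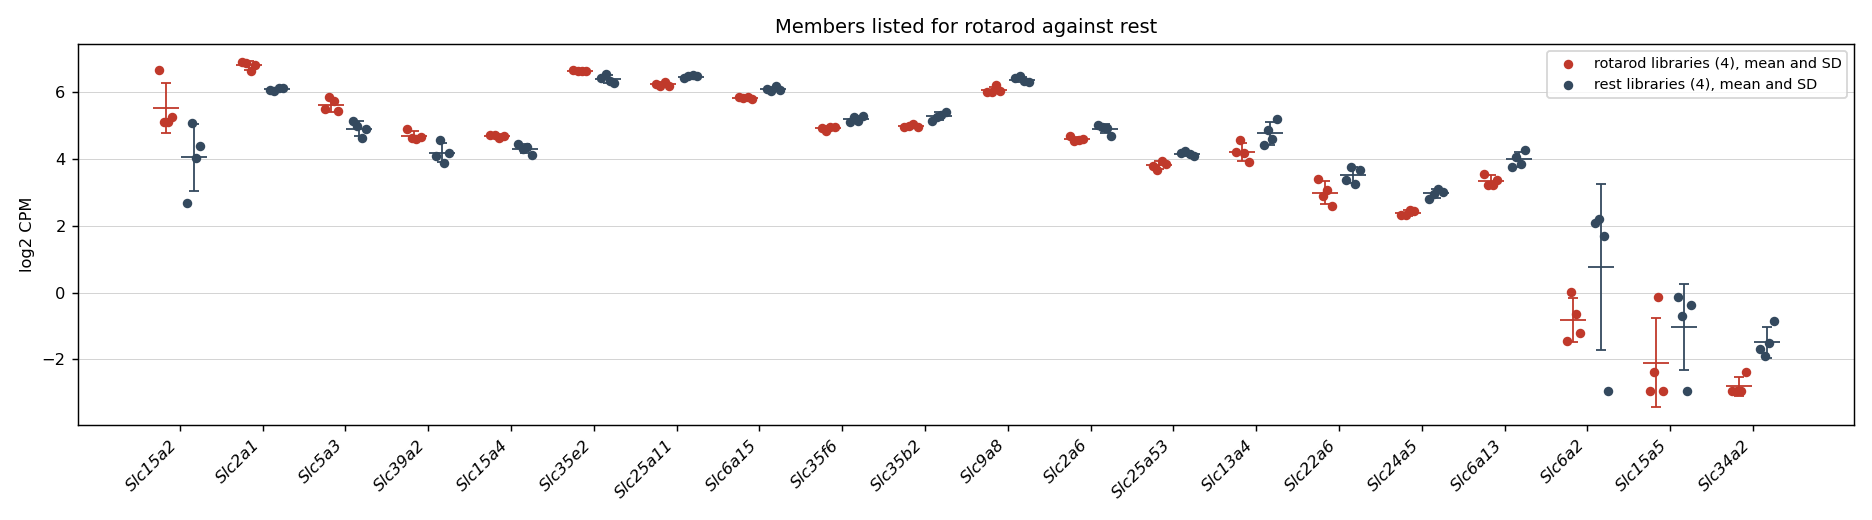
Log2 CPM of the 20 members listed for rotarod against rest, ordered from the highest to the lowest log2 fold change; points are the 4 rotarod libraries (left of each gene) and the 4 rest libraries (right), with mean and SD. Slc2a1 and Slc24a5 have narrow groups that lie apart, Slc15a2 and Slc6a2 are spread by single libraries, and the points at -2.95 are libraries with 0 reads.

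The remaining members rest on few reads. Slc6a2, the noradrenaline transporter of locus coeruleus axons, had 4, 14, 8 and 5 reads in the rotarod libraries, against 69, 65, 43 and 0 in the rest libraries. Rest library 6 therefore overlapped the rotarod group, and the difference of -1.58 ± 1.08 did not pass limma. Without that library it was -2.81 ± 0.34 (limma adjusted p = 0.0283), and of the 8 fits that left out 1 library only this 1 passed. It left out the rest library that went against the fall, so it is no support for a fall. Dbh, the enzyme that makes noradrenaline, chosen after its values were seen, had 3, 41, 9 and 5 reads in the rotarod libraries, against 61, 79, 46 and 2 in the rest libraries, so both genes were low in rest library 6. Slc34a2, a phosphate carrier, had 1 read over the rotarod libraries and 14 over the rest libraries, a ratio of 0.0653 (95% counting interval 0.00154 to 0.429). Slc15a5 had 13 and 29 reads over the same groups, with overlap.

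Of the 6 members listed in both comparisons 4 went the same way in each, 2 higher and 2 lower, where of all 322 shared genes 23.3% were higher in both and 15.5% lower in both. The 6 are 30% of the rotarod members and 5.56% of the cKO members, beside 35.5% and 5.85% for all 322 shared genes. The comparisons share no library. Slc15a4 rose in both, by 0.38 ± 0.08 after rotarod and 0.28 ± 0.04 in cKO, and so did Slc5a3, by 0.71 ± 0.14 and 0.25 ± 0.09. Slc6a13 was lower in both, at -0.65 ± 0.13 after rotarod and -0.34 ± 0.12 in cKO, as was Slc13a4 at -0.55 ± 0.19 and -0.38 ± 0.21. The amino acid carrier Slc6a15 was lower after rotarod, at -0.25 ± 0.06, with 5.84, 5.83, 5.86 and 5.80 log2 CPM in the rotarod libraries, against 6.09, 6.02, 6.18 and 6.06 in the rest libraries, and higher in cKO, at 0.51 ± 0.07. Slc35b2, which carries the sulfate donor into the Golgi, likewise differed in direction, at -0.29 ± 0.07 after rotarod and 0.22 ± 0.09 in cKO. None of the 6 was past limma in both comparisons, and the difference between the comparisons was not tested.

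**Figure D5:**
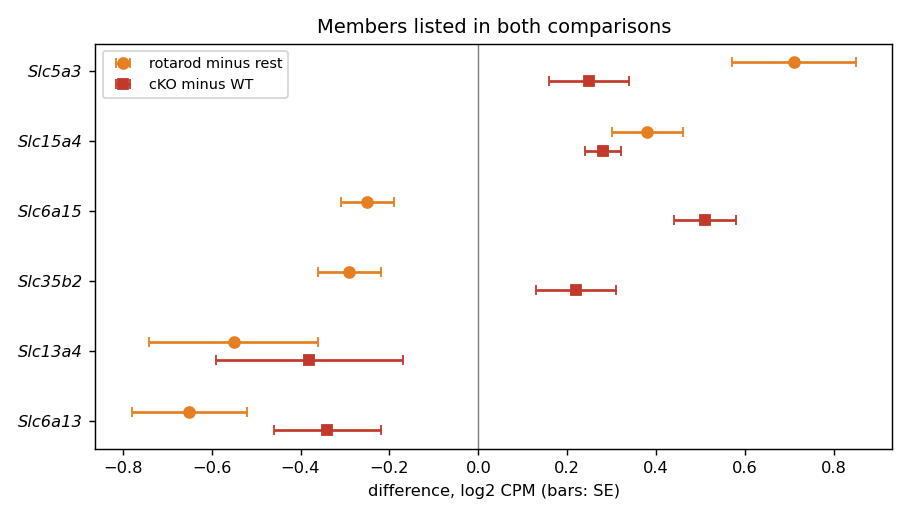
Differences in log2 CPM of the 6 members listed in both comparisons, with rotarod minus rest as circles and cKO minus WT as squares; bars are SE. Slc5a3 and Slc15a4 are to the right of 0 in both, Slc13a4 and Slc6a13 to the left in both, and Slc6a15 and Slc35b2 lie on opposite sides.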

How the data were processed

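For each gene the tables deposited by the authors give, per the file headers, log2 CPM per library and the authors' own comparison (log2 fold change, mean log2 abundance, p-value, adjusted p-value). The likelihood ratio that the authors deposited beside them is a score that was not used. Bowtie, edgeR and build mm9 are named in the submitters' processing notes, without versions; no source used here names the counting tool. The tables list only genes with an adjusted p under 0.05. The number of features tested, 27100 and 26900, was read from adjusted p times rank over p. Repeated lines (5557 lines for 5508 genes, 913 for 908) were dropped.

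All deposited log2 values share a floor, the value of 0 reads. Once it was subtracted, 100% of the low values, up to 20 reads, came out whole with a tolerance of 0.1 read, which gave the effective library sizes and the reads per library. Counting intervals are exact, at 95%, and cover counting error only.

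Since the files hold log2 values of called genes and no counts of all genes, as the design had allowed for, limma 3.58.1 (R 4.3.3) was fitted on the deposited values of all listed genes, with 4 libraries a group, no added pseudocount, no block and adjustment by Benjamini-Hochberg over the number of features tested. The variance prior comes from called genes alone. Tested on simulated data, limma called 66.0% and 85.0% of genes changed by 0.5 and 1 on the log2 scale among the 5508 genes of the cKO comparison. For the 908 genes of the rotarod comparison the shares were 75.0% and 91.5%. The simulation adjusted over these 5508 and 908 genes and not over all features tested. Its shares are therefore not the recovery of the calls given here, which had the stricter adjustment. Replicates are separate samples in the labels, and p-values measure the spread between these samples. No sample title holds the numbers of the rotarod table's columns, so a column gives the group but not the sample, and libraries go by column number (rotarod 3, 4, 7 and 8, rest 1, 2, 5 and 6).

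Members, gene lists and tests were chosen with earlier results of these data known. Transport classes follow family numbers, so that a family member with another substrate stays with its family. Named genes are the 10 highest and 10 lowest log2 fold changes at a mean of 0 log2 CPM or more, the largest change of each class, members of both comparisons and a list of well-known transporters (50 for cKO, 20 for rotarod), and others were chosen after their values were seen. Some genes counted in the totals are not reported here by name. The Sync-TRAP tables list no member. Region lists, on mm9, were not used here. Promoters are RefSeq entries on GRCm38.p6. Alternatives were stricter thresholds, minimum folds, an abundance limit, pseudocounts of 1 and 0.1 CPM, a variance trend, centring, a replicate block, subsets and each library left out.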

Additional observations from a re-analysis of the deposited data

Results flagged for a closer look

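Single libraries stood apart from the other 3 of their group in 13 of 140 groups of 4 values checked, by the ratio of the gap to the range (Dixon's test at the 95% level), which chance passes in about 1 in 20 groups. That rate need not hold for groups with few reads, where values move in steps of whole reads. Values are log2 CPM. In cKO library 3, Slc34a3 was low at -0.64 (the others 0.38 to 0.51) and Slc6a7 was low at 5.38 (5.57 to 5.60), still above every WT library. In cKO library 1, Slc1a7 was high at -1.0 (-1.60 to -1.51), from 5 reads against 3 in each of the others. In cKO library 4, Slc35b2 was low at 4.77 (4.90 to 4.92) and Slc4a3 was high at 7.56 (7.46 to 7.48). In WT library 3, Slc7a15 was low at -2.32 (-1.89 to -1.83) and Slc25a48 was high at -1.92 (-2.30 to -2.26). Both rest on a step of 1 read. In WT libraries 1 to 4 Slc7a15 had 2, 2, 1 and 2 reads and Slc25a48 had 1, 1, 2 and 1. The glial glutamate transporter Slc1a3 was high in WT library 2, at 10.49 (10.41 to 10.42), and the zinc exporter Slc30a1 was low in WT library 4, at 4.62 (4.87 to 4.90).

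In the rotarod comparison, Slc9a8 was high in rotarod library 7, at 6.20 (6.00 to 6.02). Slc34a2 was high in rotarod library 8, at -2.39 from 1 read, where the others were at the value of 0 reads, -2.95. Slc15a2 was high in rotarod library 3, at 6.65 (5.11 to 5.26). Slc6a2 had 0 reads in rest library 6, at -2.95, with the others at 1.70 to 2.21.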

How the results depend on the processing

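In cKO against WT, 59 members were listed higher and 49 lower, which became 34 and 20 at an adjusted p under 0.001, 35 and 6 at an absolute log2 fold change of 0.5, and 20 and 0 at 1. The limma calls, 44 higher and 20 lower, were 7 and 1 within libraries 1 and 2 and 14 and 4 within libraries 3 and 4. Lower calls alone were 33 with a variance trend and 41 with centring. With 1 library left out there were 32 to 39 higher and 11 to 16 lower calls; the lower calls were 13 without cKO library 1, 11 without cKO library 3, 13 without cKO library 4 and 12 without WT library 4. Same-numbered libraries correlated at 0.0983, 0.160, 0.131 and 0.0846 in their deviations, and library 4 correlated best with library 3, so numbers were not taken as pairs; the replicate block gave 34 higher and 12 lower calls and turned no sign.

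For rotarod against rest, 6 members listed higher became 3 at an adjusted p under 0.001 and 1 at a log2 fold change of 1. The 14 listed lower became 5 at an adjusted p under 0.01, 1 under 0.001, 7 at a fold of 0.5 and 3 at 1. The limma calls, 1 higher and 1 lower, were 2 and 2 with a pseudocount of 1 CPM, 2 and 3 with a variance trend, and 6 lower with centring. With 1 library left out there was 1 higher call and 0 to 1 lower. No replicate block was possible because the columns carry no titles' numbers. Settings chosen after seeing the data were columns 1 to 4 and columns 5 to 8 alone, each with 0 and 0 calls, and those column sets as a term, with 2 lower. Slc15a5 turned its sign within columns 5 to 8, to 0.11. Of the 6 members in both comparisons 0 passed limma in both. Of 3 transport classes with more higher than lower members for rotarod, 1 remained by limma. The cause of these shifts was not tested.

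Of 750 other values for 50 genes named in the cKO comparison, 646 kept their side of the threshold, 85 lost and 19 gained a call, and none turned its sign; of 300 for 20 rotarod genes the numbers were 276, 11 and 12, with 1 sign turned. Depth limits the members with few reads, whose ratios have wide counting intervals.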
